A study of Bos taurus with 10 samples.

Results

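The embryos of cows infused with the high dose of senktide were compared with the embryos of cows infused with the low dose. The members are 8 of the 10 arrays of the study, 4 labelled 300 nmol/min and 4 labelled 30 nmol/min, taken as the 4 pairs of arrays that carry the same replicate number. All cows were superovulated, and all were infused for 2 h from 48 h after the start of that treatment, inseminated at 108 and 120 h and flushed for embryos on day 7, so both groups share the superovulation, the infusion and the inseminations and differ in dose. The other 2 arrays are of embryos from cows given the vehicle, and their values stand beside some results as the level without senktide. Each array gave the total RNA of 1 embryo sample on a 1-colour bovine oligonucleotide array. Neither the number of embryos in a sample nor whether the samples of a dose came from separate cows is stated, so a p-value here speaks of the variation among these 8 RNA samples and of nothing wider.

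Senktide is a synthetic peptide that activates the neurokinin-3 receptor, through which neurokinin B acts on the hypothalamic neurons that drive gonadotropin release. A systemic infusion can thus reach the ovary by way of the pituitary, and the route in these cows was not tested. By day 7 a cattle embryo is at the morula to blastocyst stage, when an outer epithelium, the trophectoderm, surrounds the inner cell mass. The trophectoderm carries keratins, junctions and ion pumps that fill the cavity, and the cells of this stage are rich in transcripts of ribosomes and mitochondria. In whole embryos, fewer cells of a type and less RNA per cell cannot be told apart.

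The arrays held most, but not all, of the trophectoderm markers looked for. KRT8 and KRT18, the paired keratins of simple epithelia, and the trophectoderm regulators GATA2, GATA3 and TFAP2C were well above background on all 8 arrays, as was SOX2 of the inner cell mass. CDX2, NANOG and the primitive endoderm factors GATA4, GATA6 and SOX17 were well above background on none of the 8 arrays, and POU5F1 on 2 arrays of each dose. Of the 43653 probes, 3253 were well above background on all 8 arrays and were compared; they stood for 2139 named genes. The share of spots well above background was 11.5, 8.77, 18.3 and 19.6% on the low-dose arrays 1 to 4 and 10.5, 13.2, 19.6 and 19.1% on the high-dose arrays. The pair differences averaged 1.04 percentage points (SD 2.45, n = 4; exact paired permutation test, two-sided, p = 0.625, where 0.125 is the smallest p that 4 pairs allow), and without pair 2 the mean turned to -0.0776 points. Pairs 3 and 4 lay on 1 slide and detected more spots than pairs 1 and 2 at both doses. On every slide the high-dose array sat at a later position than the low-dose array of its pair, so dose and position on the slide cannot be told apart.

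**Figure D1:**
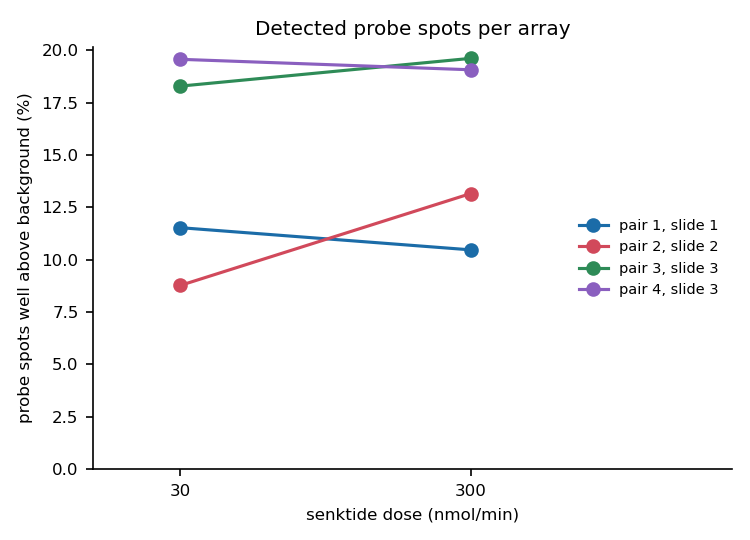
Share of probe spots well above background (%, vertical axis from 0) on each of the 8 arrays by senktide dose (nmol/min), with a line for each same-numbered pair and the slide named in the key. The lines of slide 3 lie between 18.3 and 19.6%, those of slides 1 and 2 between 8.77 and 13.2%, and 2 of the 4 lines go up.

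No transcript differed between the doses beyond the spread of the pairs once all 3253 probes were taken into account. The paired limma fit called 0 of 3253 probes at an adjusted p under 0.05 (0.0%), with a smallest adjusted p of 0.149. At an unadjusted p under 0.05 it held 263 probes (8.08%), 117 higher (3.6%) and 146 lower (4.49%) at 300 nmol/min, where 162.65 would fall under that line with no difference at all. Counted over genes there were 160 (7.48%), 67 higher (3.13%) and 93 lower (4.35%). The high-dose arrays all lay above the low-dose arrays for 31 genes (1.45%) and all below for 30 (1.4%). The median probe differed by -0.01 on the log2 scale, the median standard error was 0.13, and 56 probes had a mean difference over 0.5 in size. Without the replicate block the unadjusted count was 155, without pair 1 it was 175, and with each array scaled to the 75th percentile of all its probes it was 313, with 279 higher and 34 lower, the median probe then standing at 0.11. The differences of single pairs were only loosely alike, with a Pearson r over probes between -0.09 and 0.28, so what follows gives the values of named genes as descriptions. "Higher" and "lower" mean the sign of the mean pair difference, and levels are log2 signals relative to the 75th percentile of the array.

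**Figure D2:**
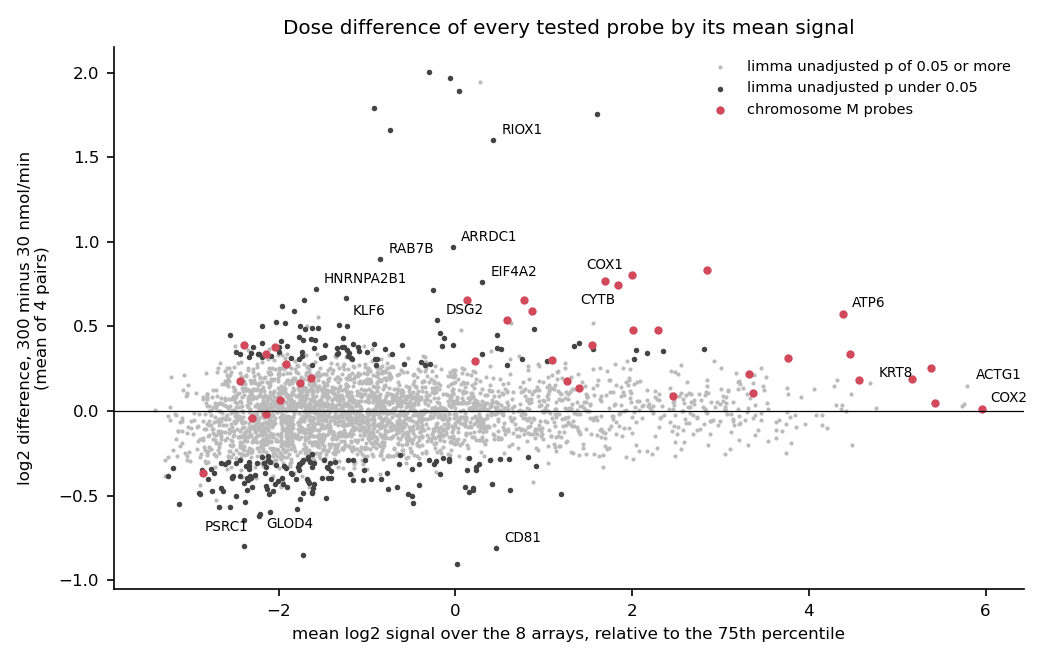
Mean pair difference (log2, 300 minus 30 nmol/min) of each of the 3253 tested probes against its mean log2 signal over the 8 arrays, with probes at a limma unadjusted p under 0.05 in dark grey and probes of the mitochondrial genome in red. Most probes lie within 0.5 of 0 at every signal, and the red points lie mostly above 0, COX1 at 0.80 and COX2 at 0.01.

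Transcripts of the mitochondrial genome had a median difference of 0.30 over 9 genes, where the median of all genes was -0.02. Of the 37 tested probes on chromosome M, 34 were higher at 300 nmol/min (46.8% of all tested probes were higher and 53.2% lower), 16 of them at an unadjusted p under 0.05 (3.6% of all), and 12 had high-dose arrays that all lay above the low-dose arrays (1.63% of all, and 1.38% lay all below). In all 4 pairs 20 were higher, against 8.02% of all probes higher and 9.93% lower. The median probe of chromosome M differed by 0.29, and by 0.37, 0.62 and 0.19 on slides 1, 2 and 3. It stayed between 0.18 and 0.38 above the median of all probes under every other scaling and with any 1 pair left out. Slide 2 held pair 2, where the differences of all probes rose with mean signal (Spearman r 0.26, against -0.09 to 0.05 in the other pairs). How much of the 0.62 goes with that was not tested. Without pair 2 the chromosome M median was 0.24, and 34 of the 37 probes were higher. The largest differences were in COX1, CYTB and ATP6, whose probes, read from the array files, are shown with that of COX2, the brightest of the group, because they carry the contrast between the largest differences and one near 0. All lie on the plus strand of chromosome M in the files' build, Btau_3.1, at chrM:7166-7225 for COX1, chrM:15477-15536 for CYTB, chrM:8908-8967 for ATP6 and chrM:7966-8025 for COX2, and no letters are marked in them.
COX1: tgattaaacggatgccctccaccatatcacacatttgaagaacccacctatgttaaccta
CYTB: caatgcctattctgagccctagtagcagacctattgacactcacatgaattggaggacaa
ATP6: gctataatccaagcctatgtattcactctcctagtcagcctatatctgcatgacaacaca
COX2: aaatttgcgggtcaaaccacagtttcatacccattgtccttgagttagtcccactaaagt

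COX1 encodes the catalytic subunit of cytochrome c oxidase. Its probe read 1.48, 1.58, 1.63 and 1.68 on the low-dose arrays 1 to 4 and 2.51, 2.63, 2.02 and 2.43 on the high-dose arrays, and 2.09 and 1.70 on the vehicle arrays. The doses did not overlap, and the vehicle arrays lay above all low-dose arrays, 1 of them within the range of the high dose. The difference was 0.80 ± 0.14 (SE, 4 pairs; limma adjusted p = 0.149), or 1.74-fold. CYTB, the cytochrome b of complex III, read 1.81, 0.82, 1.65 and 1.61 at the low and 2.66, 2.15, 1.89 and 2.16 at the high dose, a difference of 0.74 ± 0.17 (limma adjusted p = 0.308). Low-dose array 2 was the lowest of the 8, and the groups still did not overlap. The vehicle arrays read 2.31, within the range of the high dose, and 1.74, within that of the low dose. ATP6, a subunit of the ATP synthase, read 4.21, 3.70, 4.23 and 4.28 at the low and 4.89, 4.70, 4.52 and 4.60 at the high dose. The difference was 0.57 ± 0.15 (limma adjusted p = 0.342), again without overlap. Its vehicle arrays read 4.74, within the range of the high dose, and 4.07, within that of the low dose.

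Probes of 1 mitochondrial gene gave a range of values, and so did neighbouring genes. The 3 ATP6 probes were higher by 0.57 to 0.65, and the 3 probes of COX3, the next gene along, by 0.34 to 0.54; 2 probes of each gene share bases. The 5 CYTB probes were higher by 0.18 to 0.77, and the 2 at the upper end, at chrM:15444-15503 and chrM:15477-15536, share bases and are not separate evidence. The 3 probes of COX2, the mitochondrial subunit that lies between COX1 and ATP6, differed by 0.01 to 0.09. The brightest of them read 5.72, 6.16, 5.88 and 6.06 at the low and 6.07, 5.86, 6.04 and 5.91 at the high dose, overlapping throughout, and the value turns to -0.034 under quantile normalization. ND4L, a small complex I subunit, was the only mitochondrial gene lower in all 4 pairs, at -2.53, -2.31, -3.03 and -2.82 at the low dose and between -3.16 and -2.98 at the high dose, a difference of -0.37 ± 0.13 on a dim probe. The 15 probes of chromosome M with no gene name were all higher. The 14 in the ribosomal RNA region were higher by 0.07 to 0.48. Among these 14 are the 4 tested minus-strand probes of chromosome M, higher by 0.07 to 0.39. Those 4 were dim, with mean levels from -2.39 to -1.76. The remaining probe of the 15, described in the files as COX1 and lying beside the named COX1 probe, was higher by 0.83.

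**Figure D3:**
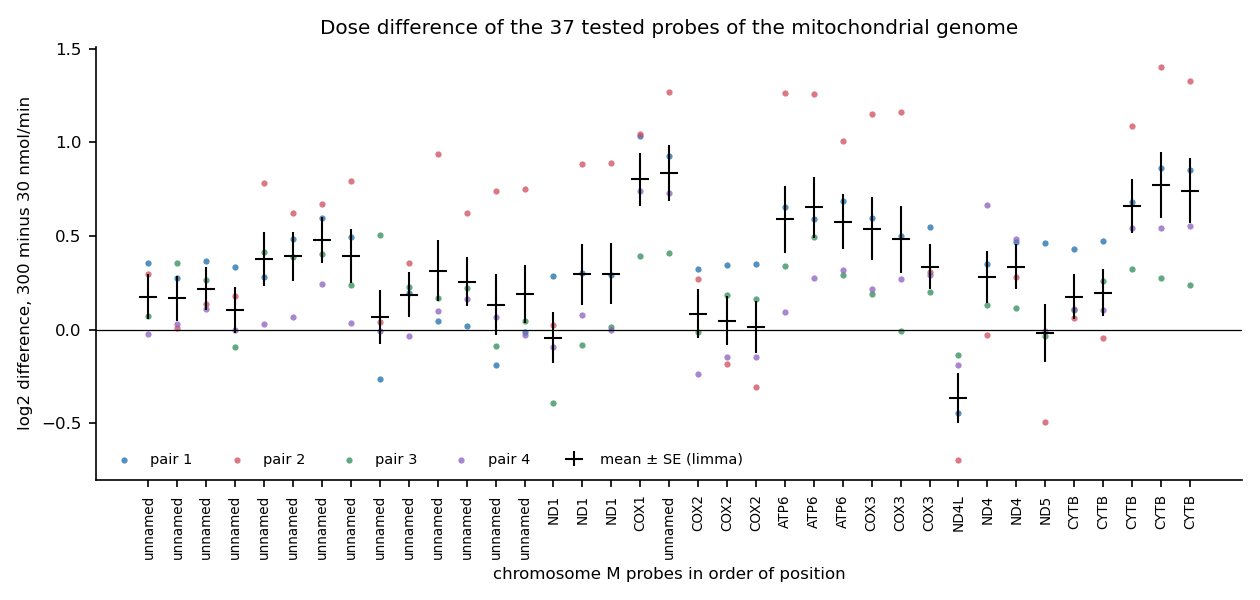
Pair differences (log2, 300 minus 30 nmol/min) of the 37 tested chromosome M probes in order of position, with a coloured point per pair and a black bar for the limma mean ± SE. Pair 2 is often the highest point, the COX1, ATP6, COX3 and upper CYTB probes stand well above 0, and the 3 COX2 probes lie between 0.01 and 0.09.

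Nuclear genes for the same organelle were mostly a little lower at the high dose. Of 78 tested nuclear genes of oxidative phosphorylation, 21 were higher and 57 lower (45.2 and 54.8% of all genes), with a median of -0.09; 16 were lower in all 4 pairs and 1 higher (10.6 and 7.43% of all genes), and 0 had an unadjusted p under 0.05. NDUFC2, a complex I subunit, read 0.72, 0.69, 0.51 and 0.81 at the low and 0.47, 0.30, 0.45 and 0.50 at the high dose, without overlap, a difference of -0.25 ± 0.12. NDUFB7, also of complex I, differed by -0.25 ± 0.12, likewise without overlap. Among 44 tested mitochondrial ribosomal proteins, 10 were higher and 34 lower, with a median of -0.10, and 2 of them, MRPS28 at -0.40 ± 0.12 and MRPL16 at -0.28 ± 0.12, had an unadjusted p under 0.05 (4.35% of all genes were lower by that rule). CS, the citrate synthase that opens the citrate cycle in the matrix, went the other way, at 1.17, 0.85, 1.46 and 1.13 against 1.54, 1.57, 1.39 and 1.65, a difference of 0.39 ± 0.15. With all probes setting the 75th percentile, the medians of the nuclear oxidative phosphorylation and mitochondrial ribosomal lists turned to 0.03 and stayed below the median of all genes, which moved to 0.10. By pair, the nuclear oxidative phosphorylation median was -0.07, 0.05, -0.22 and -0.08 in pairs 1 to 4, so pair 2 went the other way. Without pair 3 that median was -0.04, close to the -0.03 of all genes.

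Genes that handle RNA and translation held single large differences in both directions. EIF4A2, an RNA helicase of translation initiation, read -0.07, -0.22, -0.20 and 0.17 at the low and 0.77, 0.90, 0.39 and 0.66 at the high dose, with -0.18 and 0.23 in the vehicle arrays. The doses did not overlap, and both vehicle arrays lay below all high-dose arrays; the difference was 0.76 ± 0.14 (limma adjusted p = 0.149), or 1.69-fold. The other 2 EIF4A2 probes, on chromosome 1 at chr1:82284823-82284882 and chr1:82284867-82284926 on the minus strand, were higher by 0.71 and 0.55. These 2 probes share bases and are not separate evidence from each other. HNRNPA2B1, an RNA-binding protein of splicing and RNA transport, read -2.38, -1.79, -1.68 and -1.92 against -1.47, -1.40, -0.88 and -1.13. The difference was 0.72 ± 0.13 (limma adjusted p = 0.149) without overlap, made of 0.91, 0.40 and 0.79 on slides 1, 2 and 3. The vehicle arrays read -1.84, within the range of the low dose, and -1.35, within that of the high dose. TPT1, the translationally controlled tumour protein, was higher by 0.37 ± 0.12 on its brightest probe and by 0.02 to 0.40 on its 5 probes. SF3A3, of the U2 spliceosome, was higher by 0.34 ± 0.14.

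The lower genes with such functions were CNBP and RPS24. CNBP, a zinc finger protein that binds single-stranded nucleic acids, read -2.31, -2.43, -2.16 and -2.01 at the low and -2.81, -3.04, -2.70 and -2.36 at the high dose, lower in every pair, though the groups overlap, and its mean difference was -0.50 ± 0.11. RPS24, a protein of the small ribosomal subunit, differed by -0.49 ± 0.16 on its brighter and -0.01 on its other probe. Over the lists, 15 of 35 translation factors, 47 of 80 cytosolic ribosomal proteins and 34 of 52 splicing and RNA-binding proteins were higher, with medians of -0.04, 0.03 and 0.02. RPL10A, at 0.30 ± 0.14, had the largest positive difference of the named genes of the cytosolic ribosomal list. A probe with no gene name, described in the files as 60S ribosomal protein L12, differed by 1.76 ± 0.55 (limma adjusted p = 0.431), with low-dose array 3 at -2.89 against 1.24 to 2.93 on the other low-dose arrays. All 14 tested aminoacyl-tRNA synthetase genes, whose products charge transfer RNAs or scaffold those enzymes, were lower (54.8% of all genes were), with a median of -0.11. That count depends on the scale and the pairs. With all probes setting the scale 7 of the 14 were higher, without pair 2 there were 3, and the median of pair 4 was 0.004. AIMP2, a scaffold protein of that complex, differed by -0.43 ± 0.13 and the tyrosyl enzyme YARS1 by -0.26 ± 0.12. Of 31 chaperones 8 were higher and 23 lower, with a median of -0.11, DNAJA1 at -0.33 ± 0.12 on its brightest probe and CCT4, a subunit of the chaperonin that folds actin and tubulin, at -0.24 ± 0.12 without overlap. These last medians also move to about 0 when all probes set the scale, 0.01 for both lists, below the 0.10 of all genes.

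Among transcription factors, KLF6 was higher and SP1, XBP1 and KLF4 lower. KLF6, a zinc finger factor of the Krüppel-like family, read -1.79, -1.55, -1.57 and -1.36 at the low and -0.95, -0.94, -0.73 and -0.98 at the high dose, with -1.22 and -1.34 in the vehicle arrays. The high-dose arrays lay above every other array, the difference was 0.67 ± 0.13 (limma adjusted p = 0.172), and a neighbouring probe 19 bases away gave 0.65. SP1, which binds GC-rich promoters, differed by -0.54 ± 0.14 with overlapping groups. XBP1, a factor of the unfolded protein response, read -0.78, -0.43, -0.44 and -1.34 against -1.01, -0.97, -0.97 and -1.65, a difference of -0.40 ± 0.12, and MANF, a protein of the endoplasmic reticulum induced by the same response, read 0.63, 0.82, 0.98 and 0.55 against 0.45, 0.45, 0.51 and 0.44, a difference of -0.29 ± 0.12 without overlap. KLF4, listed with the pluripotency factors, differed by -0.34 ± 0.12 and SOX2 by -0.17 ± 0.15; the 4 tested genes of the inner cell mass list and the 4 tested immediate early and stress factors were all lower, with medians of -0.13 and -0.16. With all probes setting the scale 2 of 4 were lower in each list, and the medians, -0.0070 and -0.038, stayed below the 0.10 of all genes; without pair 1 the inner cell mass median was -0.24.

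KLF6 and SP1 were also the extremes of the 5 tested trophectoderm transcription factors, of which 2 were higher and 3 lower, with a median of -0.15. The other 3, GATA2, GATA3 and TFAP2C, differed by 0.05 ± 0.13, -0.15 ± 0.16 and -0.16 ± 0.14, and the sign turned for GATA2 without pair 3 and for GATA3 without pair 2. KRT8 read 4.82, 4.44, 4.83 and 4.37 at the low and 4.91, 4.61, 5.13 and 4.47 at the high dose, a difference of 0.16 ± 0.11 with a 95% confidence interval from -0.09 to 0.42. KRT18 differed by -0.07 ± 0.14, a sign that turns when all probes set the scale. Of the 6 tested keratin and structure genes 5 were higher, with a median of 0.15, among them TAGLN2, an actin-binding protein, at 0.19 ± 0.11 and EZR, the membrane linker ezrin, at 0.22 ± 0.12, each higher in all 4 pairs.

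Among junction and surface genes, DSG2 and ST14 were higher and CD81 lower at the high dose without overlap. DSG2, a cadherin of desmosomes, read -0.30, -0.44, -0.57 and -0.60 at the low and 0.11, -0.05, 0.29 and -0.12 at the high dose, with -0.56 and -0.45 in the vehicle arrays. All high-dose arrays lay above the other 6, and the difference was 0.54 ± 0.13 (limma adjusted p = 0.316). CDH1, the E-cadherin of adherens junctions, was higher by 0.32 ± 0.16 with overlap. Of the 6 tested desmosome and adherens junction genes 5 were higher, with a median of 0.12. By pair that median was 0.04, 0.46, 0.10 and 0.02, so pair 2 carried most of it. Of 3 tested tight junction genes 1 was higher and 2 lower, with a median of -0.01. CD81, a tetraspanin of the cell surface, read 0.68, 0.88, 0.89 and 0.99 at the low and -0.62, 0.24, 0.10 and 0.48 at the high dose, with 0.24 and 0.13 in the vehicle arrays. The low-dose arrays were the highest of the 10, and the difference of -0.81 ± 0.15 (limma adjusted p = 0.149), 1.75-fold, was the largest negative one among named genes in which all pairs went the same way. EPCAM, an adhesion molecule of epithelia, differed by 0.18 ± 0.13. ST14, the membrane serine protease matriptase, read -2.63, -1.94, -1.88 and -2.04 against -1.43, -1.52, -1.32 and -1.86, a difference of 0.59 ± 0.17 without overlap, and ATP1B3, a beta subunit of the sodium pump, was higher on all 4 of its probes, by 0.20 to 0.36.

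Several further genes with large differences belong to no single function. RAB7B, a small GTPase of late endosome traffic, read -0.31, -1.30, -2.29 and -1.29 at the low and 0.32, -0.34, -0.94 and -0.63 at the high dose. It was higher in every pair by 0.64 to 1.34 while the groups overlap, a difference of 0.90 ± 0.14 (limma adjusted p = 0.149). The vehicle arrays read -0.23 and -0.22, above all low-dose arrays and below only high-dose array 1. B9D2, of the transition zone of cilia, was higher by 0.62 ± 0.18. GLOD4, a glyoxalase domain protein, read -1.97, -1.31, -2.12 and -2.20 against -2.56, -2.09, -2.52 and -2.87, a difference of -0.61 ± 0.12 (limma adjusted p = 0.177). TMUB1, a ubiquitin-like membrane protein, differed by -0.58 ± 0.14, NKAP, a nuclear speckle protein, by -0.57 ± 0.14 and GOT2, the mitochondrial aspartate aminotransferase, by -0.51 ± 0.15. TBRG1, a growth regulator, differed by -0.49 ± 0.14 and its groups did not overlap, reading -1.37, -1.44, -1.38 and -1.35 against -2.06, -2.21, -1.65 and -1.56. PSRC1 of the mitotic spindle and CENPS of the kinetochore differed by -0.62 ± 0.19 and -0.52 ± 0.14, beside a cell cycle list in which 10 of 29 tested genes were higher and 19 lower, with a median of -0.11, CKS2 at -0.37 ± 0.16 and PTTG1 at -0.29 ± 0.12.

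**Figure D4:**
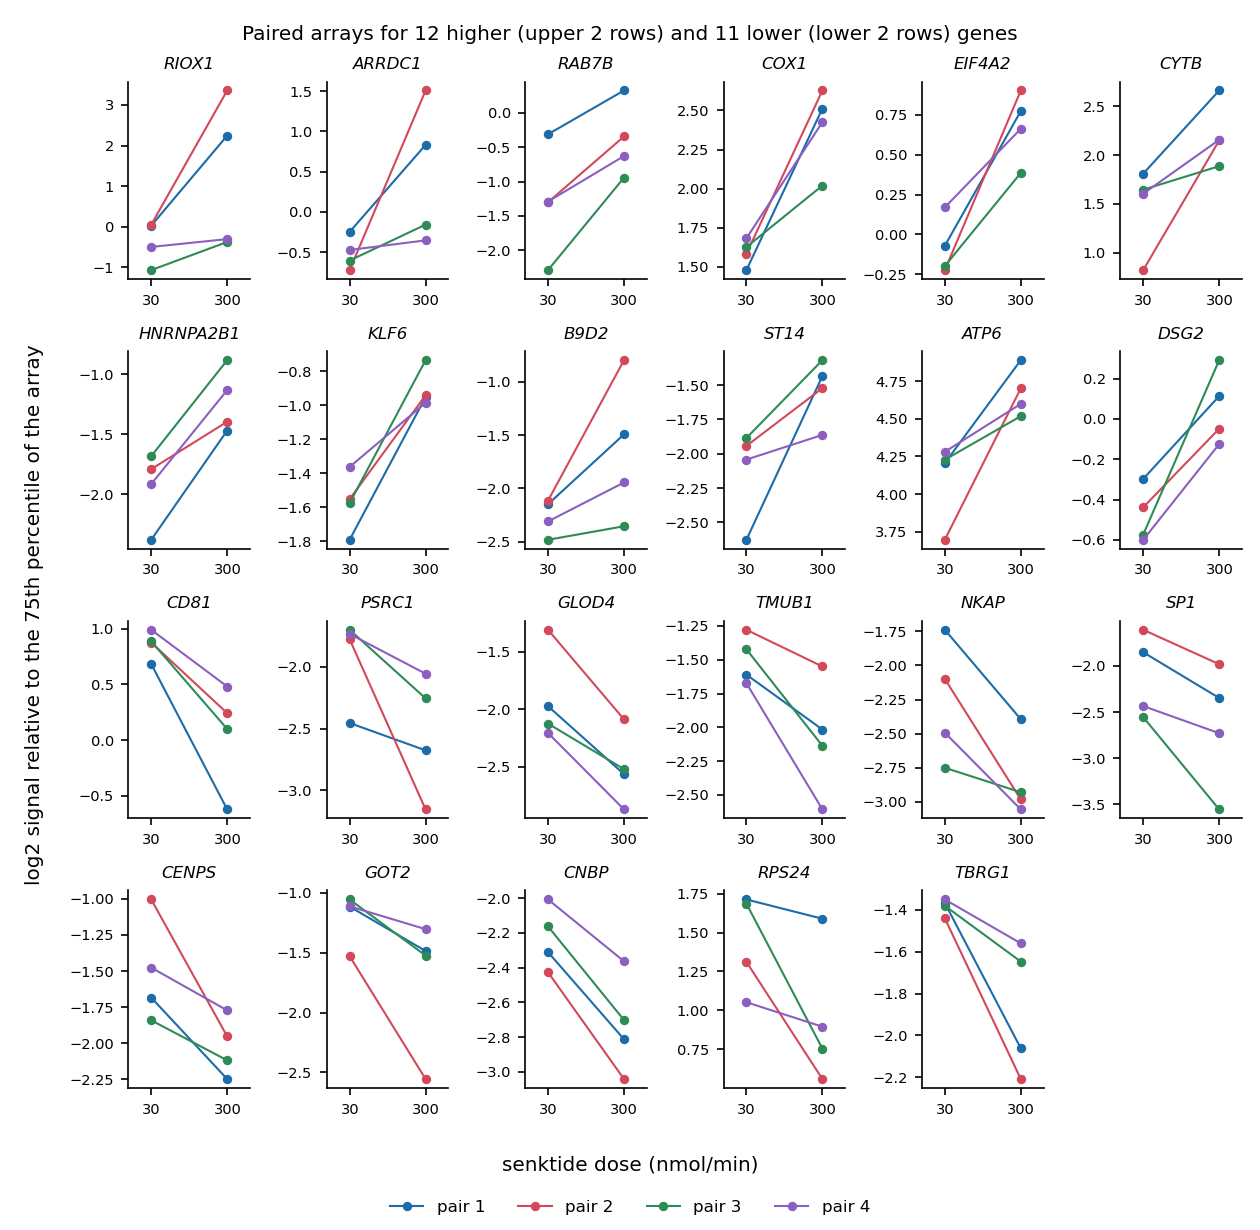
Log2 signal relative to the 75th percentile of the array for 12 genes with the largest positive and 11 with the largest negative mean difference among those that went 1 way in all 4 pairs, by senktide dose (nmol/min), with a line per pair and a scale of its own in each panel. COX1, EIF4A2, KLF6 and DSG2 separate the doses in all pairs, while RIOX1 and ARRDC1 go up steeply in pairs 1 and 2 only.

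The largest differences of all came from probes that share a run of guanines. Of the 8 probes with a mean difference over 1, 6 hold GGGTTGGGG in the probe sequence, as do ARRDC1 and 1 further tested probe. The probes belong to VPS16 (endosomal sorting, 2 overlapping probes), MYADM (a membrane protein), CCDC22 (endosomal recycling), FAAP24 (DNA crosslink repair), RIOX1 (a ribosomal oxygenase) and ARRDC1 (an arrestin-like adaptor), on 5 chromosomes. They were singled out after their values were seen. The windows show the shared letters, in capitals, in each probe that names a gene.
VPS16: aaaagctgGGGTTGGGGccagggtt
MYADM: tcccagtgGGGTTGGGGgtgtgtgt
CCDC22: cggggcggGGGTTGGGGtcttggat
FAAP24: ggagtcggGGGTTGGGGctgaaacc
RIOX1: tggggggaGGGTTGGGGtcagtttc
ARRDC1: ctcccaggGGGTTGGGGcctagaga

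Each of these probes was brightest on high-dose arrays 1 and 2. VPS16 read -0.44, -1.02, -2.60 and -1.14 at the low and 2.59, 3.97, -1.83 and -1.90 at the high dose. RIOX1 read 0.03, 0.05, -1.07 and -0.50 at the low and 2.25, 3.36, -0.37 and -0.30 at the high dose, a mean difference of 1.60 ± 0.42 (limma adjusted p = 0.366) made of 2.22 and 3.30 on slides 1 and 2 and 0.44 on slide 3. ARRDC1 differed by 1.08 and 2.23 on slides 1 and 2 and by 0.28 on slide 3. The vehicle arrays of slides 1 and 2 read -0.06 and -0.18 for RIOX1, like the low dose on those slides. All 10 tested probes above 1 in both pair 1 and pair 2 were these 7, the COX1 probe, and the SUGP2 and GPAT4 probes. The SUGP2 and GPAT4 probes hold the same run with 1 T more, and 9 of the 10 thus hold 1 of the 2 runs. GGGTTGGGG is in 0.246% of the tested probes. The longer run is in 9 probes of the array and in 2 tested probes. It is a variant of the first run, taken up after the values were seen, so the count of 9 is not separate support.

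Most probes with these letters were too dim to be tested. Of the 43653 probes 19 hold GGGTTGGGG (0.0435%), and 15 and 16 of them were well above background on high-dose arrays 1 and 2, against 11, 9, 11 and 13 on the low-dose arrays, 12 and 13 on high-dose arrays 3 and 4, and 8 on each vehicle array. These counts include the 8 tested probes, which were above background on all 8 arrays by choice. Of the 11 not tested, 7 and 8 were above background on high-dose arrays 1 and 2, 4 and 5 on high-dose arrays 3 and 4, 3, 1, 3 and 5 on the low-dose arrays and 1 on each vehicle array, where 8.75 to 19.6% of all probes were on the 8 dose arrays. Of the 22 probes that hold the reverse complement, CCCCAACCC, 8 were well above background on each high-dose array and 5 to 8 on the low-dose arrays. The tested exception was NUP93, of the nuclear pore, whose probe holds the letters from base 3 on and differed by 0.56, 0.11, -0.16 and 0.19 in pairs 1 to 4. All 9 tested probes with either run that were above 1 in pairs 1 and 2 carry a gene name, and whether their signal is that of the named gene was not tested.

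Metabolic and housekeeping lists held few large differences. Of 16 tested antioxidant genes 13 were higher, with a median of 0.09, PRDX1, a peroxidase of the cytosol, at 0.37 ± 0.13 and in the other direction TXN2, the mitochondrial thioredoxin, at -0.36 ± 0.12. Of 5 cholesterol genes 4 were higher, with a median of 0.17: MSMO1, a sterol oxidase of that pathway, read -1.40, -1.27, -1.17 and -0.87 against -1.19, -0.99, -0.65 and -0.49, higher in every pair with a mean difference of 0.35 ± 0.12, and MVK, the mevalonate kinase, differed by 0.27 ± 0.15. GAPDH of glycolysis was higher in all pairs, by 0.24 ± 0.12, while ACTB, the beta-actin often used as a reference beside it, was lower in all pairs, with a difference of -0.19 ± 0.11 and high-dose arrays all below low-dose arrays. The actin list had 14 of 21 genes higher and a median of 0.03, ACTR3 of the Arp2/3 complex at 0.33 ± 0.12. The proteasome was even, with 23 of 41 genes higher and a median of 0.01, PSME4, a proteasome activator, at 0.38 ± 0.14 and PSMA2, a core subunit, at 0.21 ± 0.13. The secretory pathway was also near even, with 17 of 30 genes higher and a median of 0.01. At a limma unadjusted p under 0.05, 1 of its genes was higher and 3 lower (3.13 and 4.35% of all genes). In this list COPE, of the COPI coat, was higher by 0.35 ± 0.12 on 1 probe and 0.05 on another that starts 2 bases away. Among chromatin genes CTCF, which organises chromatin loops, differed by 0.38 ± 0.14 and MBD3, of a deacetylase complex, by -0.44 ± 0.12.

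**Figure D5:**
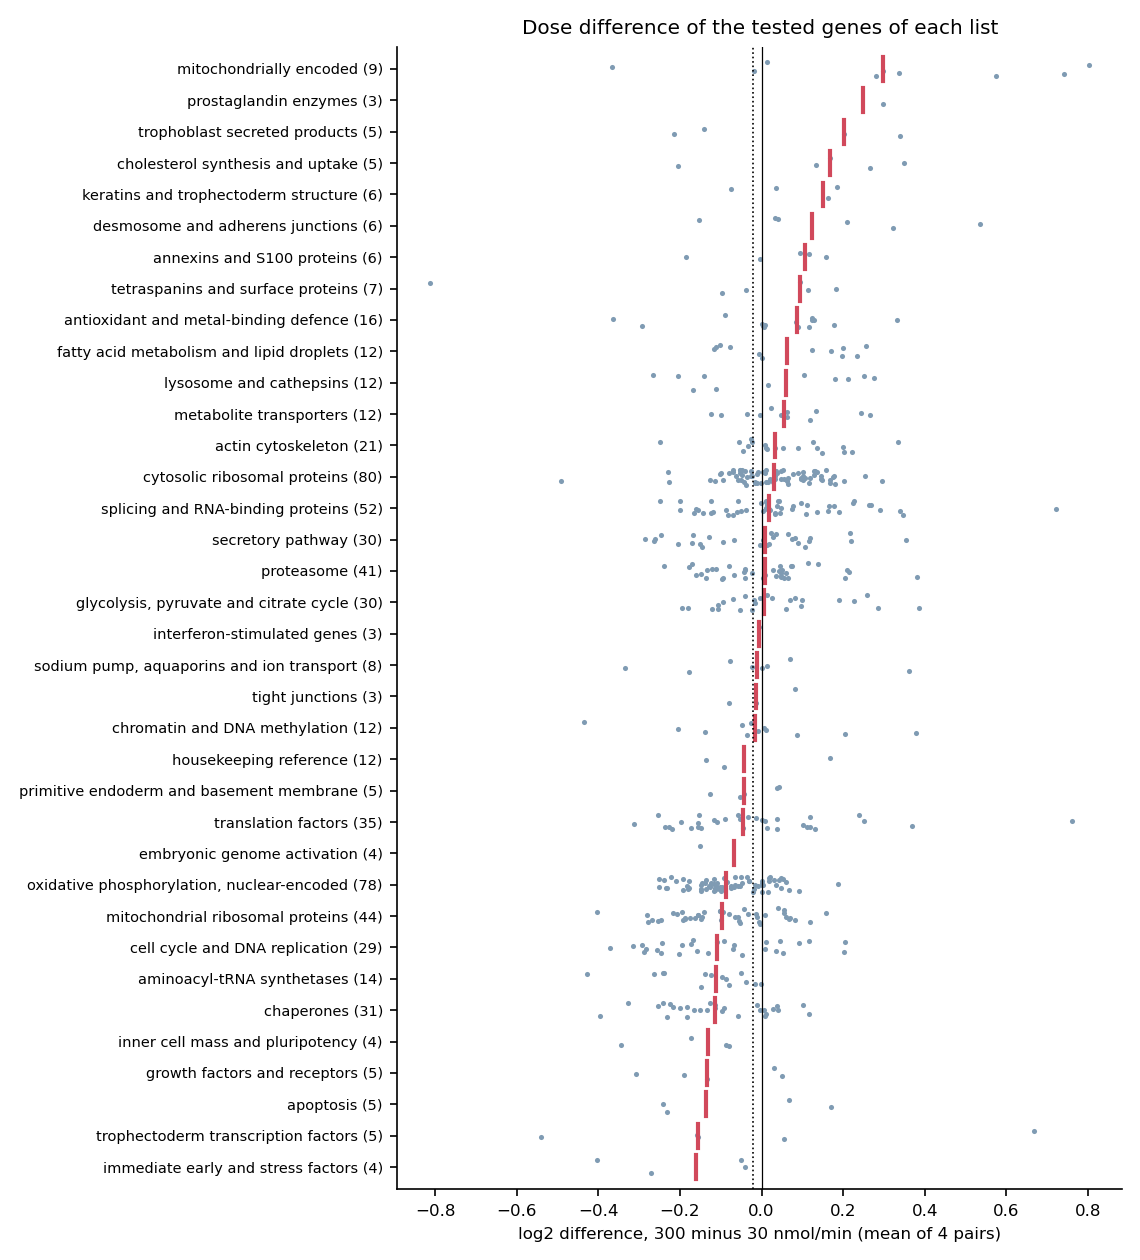
Mean pair differences (log2, 300 minus 30 nmol/min) of the tested genes in each list with at least 3 of them, a blue point per gene, a red bar at the list's median and the number tested in brackets; the dotted line is the median of all genes, -0.02. The mitochondrially encoded list has a median of 0.30, and most list medians lie within 0.2 of 0.

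No gene tied to trophoblast secretion or prostaglandins passed the adjusted test. LGALS3, a galactoside-binding lectin, was higher by 0.34 ± 0.13 and SSLP1, a secreted trophoblast protein, by 0.20 ± 0.12, each in all 4 pairs. IFNT3, of the interferon tau family by which the embryo signals to the mother, read -1.89, -1.35, -2.12 and -3.09 at the low and -1.92, -2.32, -1.81 and -2.96 at the high dose, a difference of -0.14 ± 0.20 whose sign turns without pair 2. PTGS2, the inducible cyclooxygenase, read -1.90, -2.10, -2.39 and -2.27 against -2.04, -2.11, -0.81 and -2.71, a difference of 0.25 ± 0.28 that rests on high-dose array 3 and is -0.20 without pair 3. The 2 vehicle arrays were not well above background for PTGS2. TACR3, the gene of the receptor senktide binds, was well above background on 0 of 8 arrays, and no gene of the neurokinin and hormone list was measured on all 8.

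Few marker transcripts of other cells were measured at either dose. Of 13 uterine epithelial marker genes on the array 2 were well above background on each low-dose array and 0 to 2 on the high-dose arrays, and of 21 leukocyte genes 3 to 5 and 2 to 6 were. The blood, neutrophil, stroma and cumulus lists had 0 to 2 genes well above background on any array, and HBB of blood, S100A8 of neutrophils, COL1A1 of stroma and OVGP1 of the oviduct had 0 of 8 arrays. HBA of blood had 2 arrays of each dose, COL1A2 of stroma 1 at the low and 2 at the high dose, ITGB2 of leukocytes 2 at either dose and PTPRC, also of leukocytes, 2 at the low and 3 at the high dose, while LYZ, lysozyme, was well above background on all 8. No probe was well above background on all 4 arrays of 1 dose and on 0 of the other; with at least 3 arrays, 15 probes were so at the high dose alone and 4 at the low dose alone. COX4I2, a nuclear subunit of cytochrome c oxidase, and GADD45B, a stress response gene, were among those of the low dose. TRIM27, a ubiquitin ligase, and CLSTN1, a calsyntenin, were among those of the high dose. Being brighter at that dose follows from the rule that picked them. The signals of the other dose were at background, so no fold is given. None of these 4 was called in the fit of all probes. Admitting probes well above background on 4 of 8 arrays gave 1 call, an unnamed transcript on the minus strand at chrX:55167311-55167370, lower in every pair, with a mean difference of -2.31 (SE 0.16, limma adjusted p = 0.0189), with 3 low-dose arrays and 1 high-dose array well above background. The other signals in that difference were at background, so its size is not a measured fold.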

How the data were processed

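Total RNA of embryos was labelled with Cy3 and hybridised to Agilent bovine arrays, per the labels, whose extraction text speaks of endometrium while titles and tissue fields name embryos. The deposited scanner files hold intensity values, background-subtracted and detrended but not scaled between arrays, read with Feature Extraction (per the file headers version 11.5.1.1, while the submitters' processing notes give 10.5.1.1). The authors' deposited series matrix holds log2 values that equalled log2 of that signal once the 75th percentile of every probe on the array and then the median of each probe were subtracted, within 0.01 for at least 99.9% of the values of each array; its values were an alternative. Probe flags in the deposited files gave spots well above background, per the file headers; 0 spots were saturated.

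Here log2 of the processed signal, less outlier spots, was set relative to the array's 75th percentile over the 3253 probes that passed this flag on each of the 8 arrays. Differences were fitted with limma 3.58.1 (R 4.3.3; lmFit, eBayes, replicate number as a block), with Benjamini-Hochberg adjustment and a threshold of 0.05. Deviations from the dose means correlated at r = 0.464, 0.292, 0.437 and 0.355 within same-numbered pairs, each above 0.1, and the numbers were taken as pairs. Pairs of different number also passed 0.1. Low 3 with high 4 had r = 0.423, low 1 with high 2 had 0.379, low 2 with high 1 had 0.155 and low 4 with high 3 had 0.116. High arrays 2 and 4 thus correlated more with a low array of another number, so the check does not settle the pairing. Pairs 1 and 2 each had a slide, and pairs 3 and 4 shared 1. On simulated data the fit called 68% of 50 probes changed by 0.5 and all of those changed by 1, with 7 false calls. The simulated noise was normal and independent between arrays, at variances taken from the fit. It held 50 changed probes at each of 0.5, 1, 1.5 and 2. In the data the COX1 difference of 0.80 had a limma adjusted p of 0.149, so these rates do not carry over to the arrays. The number of arrays limits the precision.

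Names came from RefSeq (ARS-UCD2.0, names only), and coordinates are the files' own (Btau_3.1). The tested probe with the highest mean stood for a gene. The 24 leading genes were the 12 higher and 12 lower with the largest mean difference among those alike in all 4 pairs at an unadjusted p under 0.05; 47 gene lists added the 2 members with the smallest p and the brightest, and 16 markers were fixed by name. Not all of those genes are described, 1 of the 24 is not reported here, and genes of the guanine-run probes and the probes measured at 1 dose were chosen after their values were seen. The members and lists were chosen with earlier results of these data known. Alternatives were other scalings, normexp, other filters, slide as a block, all 10 arrays, and each pair left out. Tables were handled in Python 3.11.15 with pandas 2.3.3, and plots were made with matplotlib 3.10.9.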

Additional observations from a re-analysis of the deposited data

Results flagged for a closer look

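In 154 groups of 4 arrays, 8 held 1 array that stood apart from the other 3 by Dixon's test at the 95% level, and chance gives about 1 such group in 20. At 30 nmol/min, array 2 was the lowest for ATP6, at 3.70 against 4.21 to 4.28, and for GOT2, at -1.53 against -1.12 to -1.06. Array 1 was the lowest for PSRC1, at -2.45 against -1.78 to -1.70, and array 4 the highest for KLF4, at 0.075 against -0.49 to -0.42. At 300 nmol/min, array 4 was the lowest for KRT18, at 3.23 against 4.10 to 4.22, and for XBP1, at -1.65 against -1.01 to -0.97. Array 3 was the highest for MANF, at 0.51 against 0.44 to 0.45, and for YARS1, at -0.83 against -1.06 to -1.03.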

How the results depend on the processing

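The count of called probes was 0 under every alternative but 1: among probes well above background on at least 4 of 8 arrays 1 was called, with 544 at an unadjusted p under 0.05. The unadjusted count, 263, was 155 without the replicate block, 119 with all 10 arrays in the fit, 2330 with no filter on dim probes and 175 to 347 with a pair left out, and both the paired fit and the fit without the block called 0; the call at 4 of 8 arrays was not refitted without it. A fit with a variance trend on the mean signal, chosen after seeing the data, called 0 probes and held 270. Over 76 genes and 15 alternatives, 70 genes kept the sign of their difference. Much of this was fixed in advance. A gene chosen as alike in all pairs cannot turn when a pair is left out. Alternatives that keep the main scaling and every pair give the same difference. COX2 turned to -0.034 under quantile normalization and -0.021 with normexp, and KRT18 to 0.048 with the 75th percentile of all probes and in the series matrix. With a pair left out COX2 ran from -0.097 to 0.12, GATA2 from -0.042 to 0.15, GATA3 from -0.31 to 0.0083, IFNT3 from -0.29 to 0.14, KRT18 from -0.19 to 0.073 and PTGS2 from -0.20 to 0.48, and the difference in spots well above background from -0.0776 to 1.74 points. The mitochondrially encoded list's median, 0.298, was above that of the 3 prostaglandin genes, 0.247, but not under quantile normalization (0.271 and 0.284) or without pair 1 (0.266 and 0.372) or pair 4 (0.352 and 0.381). The causes were not tested. Signal over background limits what could be compared: 32743 of 43653 probes were well above background on none of the 8 arrays.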
